A study of Mus musculus with 16 samples.

Results

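The comparison described here set splenic CD4+ T cells of NEMO knockout mice with nephritis against those of NEMO knockout mice without it, on 2 arrays a side, which are 4 of the 16 arrays of the series. The nephritic NEMO group (2 arrays) held CD4+ lymphocytes of male mice aged 8 to 10 weeks that carried Cre recombinase driven by the CD4 promoter and a floxed NEMO gene. They had been injected intraperitoneally with sheep serum against glomerular antigens (nephrotoxic serum), at 2.5 mg for each g of body weight, and their organs were taken on day 10. The untreated NEMO group (2 arrays) had the same genotype, age and sex and is labelled as free of inflammation. For comparison, nephritic and untreated mice with floxed IKK2 and CD4-driven Cre (IKK2 knockout, 3 arrays each) and nephritic and untreated mice with CD4-driven Cre alone (Cre control, 3 arrays each) were used. All groups therefore carry the Cre transgene, and its promoter drives Cre once thymocytes switch on CD4, so that deletion reaches the T cell lineage. The labels say neither whether RNA was pooled over animals nor whether replicate arrays stand for different mice, so the p-values reflect only how these arrays varied, which may be technical variation.

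NEMO, encoded by Ikbkg, is the regulatory subunit of the IkB kinase complex, whose catalytic subunits are IKK1 (Chuk) and IKK2 (Ikbkb). In canonical NF-kB signalling the complex phosphorylates IkB proteins, which are then degraded, and dimers such as p50 with RelA enter the nucleus. The noncanonical route runs through the kinase NIK (Map3k14) and IKK1 to RelB and p52 and does not need NEMO. Nephrotoxic serum holds antibodies against glomerular antigens, and the nephritis that follows has a T helper cell component that is primed in the spleen and lymph nodes. T cells that lack NEMO are known to persist poorly in the periphery, and the labels do not say what share of the sorted cells had deleted the gene.

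Levels are log2 processed intensities minus the 75th percentile of their array, so 0 is the level that 75% of probes do not exceed. A difference is nephritic minus untreated on that scale. The test was limma's moderated test on all 16 arrays, with Benjamini-Hochberg adjustment over 14675 genes and a threshold of 0.05. The 4 NEMO arrays correlated across genes at 0.993 between the nephritic arrays, 0.993 between the untreated arrays and 0.988 to 0.990 between the groups. On the first principal component of these 4 arrays, with 52.3% of their variance, the nephritic arrays lay at -29.2 and -20.5 and the untreated arrays at 21.0 and 28.8. All 4 arrays were on a single slide and scanned together. The nephritic arrays lay in its first row of array positions and the untreated arrays in its second row, so position on the slide and disease cannot be told apart.

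The cells carried the T cell label's markers. Cd4 read 5.94 and 5.99 on the nephritic arrays, against 5.96 and 5.97 on the untreated arrays, and Cd3e read 6.89 and 6.71 against 6.93 and 6.66. Ikbkg itself read -0.71 and -0.59 on nephritic arrays, against -0.94 and -0.74 on untreated arrays of the NEMO knockout. In Cre control cells it averaged -0.31 ± 0.08 with nephritis and -0.70 ± 0.17 without (SD, n = 3 each). All 4 NEMO knockout values were below the nephritic Cre control mean, and their range included the untreated Cre control mean. The sources used here do not place the 2 Ikbkg probes relative to the deleted part, so their level does not check the deletion.

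Nephritis in NEMO knockout mice went with lower levels of a small set of genes and higher levels of a few. Of the 14675 genes, 61 passed (0.416%), 9 of them higher in nephritic cells (0.0613%) and 52 lower (0.354%). The fitted difference was at least 2-fold in 50 of the 61, 6 higher and 44 lower. Among genes above background on all 4 NEMO arrays it was so in 3 higher and 28 lower ones. For genes above background on no array of a group, only the bounds given below hold, and some of these are under 2-fold. The set of 61 genes is not stable in size. It held 13 genes after normexp background correction, which also used the median spot signal without detrending and an offset in place of the processed signal, 11 on the authors' deposited log2 matrix and none when the 4 NEMO arrays were fitted alone, where 1727 genes had an unadjusted p under 0.05. It held 23 genes without nephritic array 2, 40 without untreated array 1 and 30 without untreated array 2. The adhesion protein gene Amigo2 and the actin-binding calponin gene Cnn3 kept their call in 26 of 27 alternatives, all but the fit of the 4 arrays alone.

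The 61 genes fell into sets by whether the probe was above background, a division made after the values were seen. Of the 52 lower genes, 36 were above background on all 4 NEMO arrays, with a median difference of -1.19 and a range of -2.13 to -0.49. Another 15 were above background on no nephritic array, with a median of -3.42, and Cxcr1 was above background on 3 of the 4 arrays. Of the 9 higher genes, 6 were above background on all 4 arrays, and Rag1, Slc46a2 and Fzd6 were so on no untreated array. The description starts with the 42 genes measured on all 4 arrays.

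**Figure D1:**
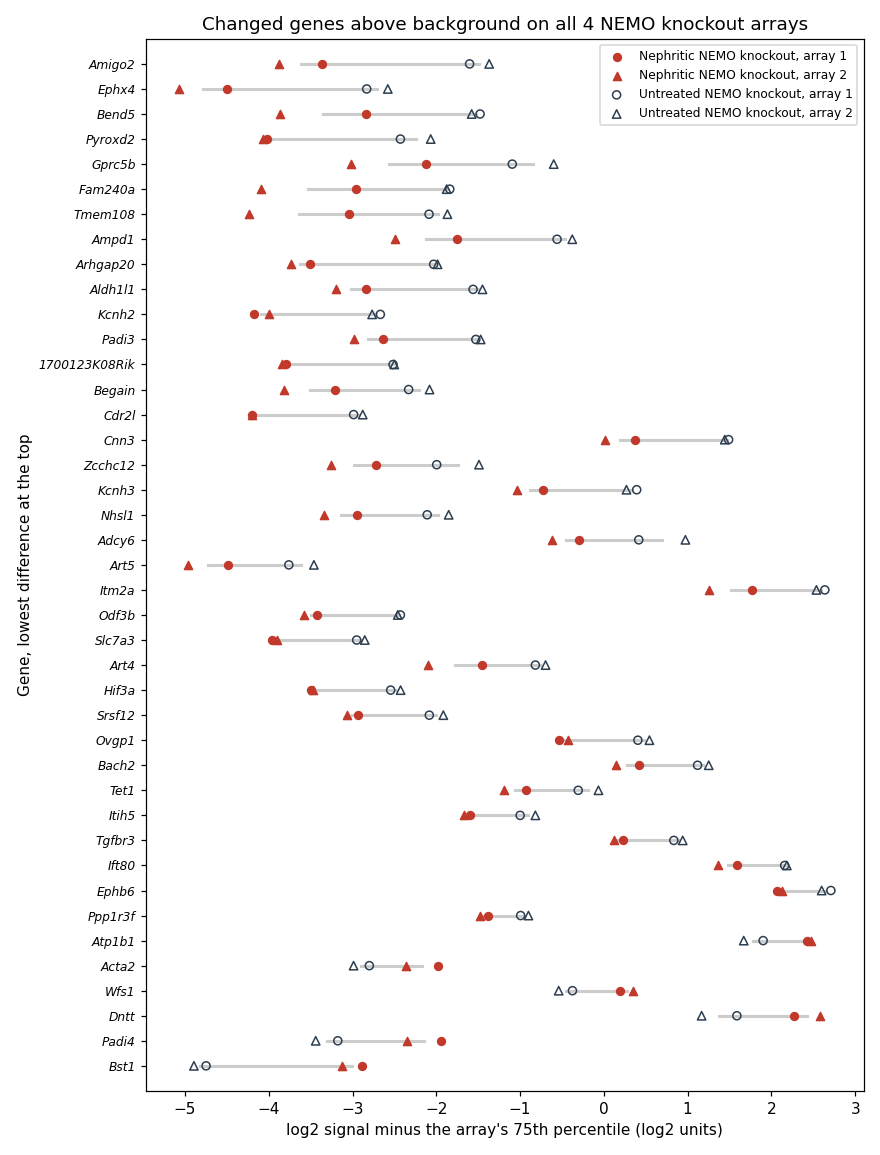
Values of 41 of the 42 changed genes that were above background on all 4 NEMO knockout arrays. The x axis gives the log2 signal minus the 75th percentile of the array, red filled symbols are the nephritic arrays, open dark symbols the untreated arrays, and grey lines join the group means; circles are array 1 and triangles array 2. The nephritic symbols lie left of the untreated ones for the 35 lower genes shown and right of them for the 6 higher genes, and for 29 of these 35 genes nephritic array 2 lies below nephritic array 1.

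Amigo2, which encodes a leucine-rich repeat adhesion protein, read -3.36 and -3.87 on nephritic arrays, against -1.60 and -1.37 on untreated arrays. It fell by 2.13 on the log2 scale (SE 0.15, limma adjusted p = 6.49e-05), a level 4.38-fold higher in untreated cells. The gap between the groups is wider than the spread within either. Cnn3, which encodes calponin 3, read 0.37 and 0.01 on nephritic arrays, against 1.49 and 1.44 on untreated arrays. It fell by 1.27 (SE 0.15, limma adjusted p = 0.00309), and its other probe differed by -1.06, with -0.48 and -0.69 against 0.39 and 0.56. Both probes put all nephritic values below all untreated values.

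In all, 8 lower genes kept their call on normexp-corrected values and on the deposited matrix, among them Amigo2, Cnn3, Itm2a, Kcnh3, Adcy6, Ampd1 and Bend5. Itm2a encodes a membrane protein of developing and activated T cells and read 1.77 and 1.25 on nephritic arrays, against 2.64 and 2.54 on untreated arrays. It fell by 1.07 (SE 0.14, limma adjusted p = 0.00615). Kcnh3, a voltage-gated potassium channel subunit, read -0.72 and -1.03, against 0.39 and 0.27. Its difference was -1.21 (SE 0.17, limma adjusted p = 0.00755). A second gene of the same channel family, Kcnh2, read -4.18 and -4.003 against -2.67 and -2.77, and fell by 1.37. Unlike Kcnh3, it lost its call on normexp-corrected values and on the deposited matrix, and kept it in 13 of 27 alternatives.

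Adcy6 encodes adenylyl cyclase 6, which makes cyclic AMP, and read -0.29 and -0.62 on nephritic arrays, against 0.42 and 0.97 on untreated arrays, a difference of -1.15. Ampd1, the AMP deaminase known from muscle, read -1.75 and -2.50, against -0.56 and -0.38, a difference of -1.66. In both genes nephritic array 2 was the lowest of the 4 arrays. Bend5, a BEN domain gene, read -2.84 and -3.87, against -1.48 and -1.58, and its second probe differed by -1.42.

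Several of the lower genes are known from T cells or their receptors. Bach2 encodes a transcriptional repressor that restrains effector differentiation of T cells. It read 0.41 and 0.15 on nephritic arrays, against 1.12 and 1.25 on untreated arrays. It fell by 0.91 (SE 0.13, limma adjusted p = 0.0105), and its second probe differed by -0.96, with the groups apart on both probes. Ephb6, a kinase-defective Eph receptor present on T cells, read 2.07 and 2.12, against 2.71 and 2.60, and fell by 0.56. Tgfbr3, the TGF-beta co-receptor betaglycan, read 0.22 and 0.12, against 0.83 and 0.94, and fell by 0.72. Tet1, which oxidises methylated cytosine in DNA, read -0.93 and -1.19, against -0.31 and -0.07, and fell by 0.88. Of 27 alternatives Bach2 kept its call in 21, Tet1 in 20, and Ephb6 and Tgfbr3 in 10 each. None of these calls held on the deposited matrix or after normexp correction.

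Genes of several enzymes and of a transporter were among the remainder. Ephx4, of the epoxide hydrolase family, read -4.50 and -5.07 on nephritic arrays, against -2.83 and -2.58 on untreated arrays, and fell by 2.08 (SE 0.23, limma adjusted p = 0.00222). Aldh1l1, which oxidises formyl-tetrahydrofolate, differed by -1.51, and Padi3, a peptidylarginine deiminase, by -1.31. The ADP-ribosyltransferase genes Art4 and Art5 differed by -1.02 and -1.12, and the cationic amino acid transporter gene Slc7a3 by -1.03. Gprc5b, an orphan G protein-coupled receptor, read -2.12 and -3.02, against -1.09 and -0.60, a difference of -1.72, and nephritic array 2 was again the lowest. Tmem108 is a case where probes disagree, since its tested probe differed by -1.66 and its other probe by -0.01. The lower genes measured on all 4 arrays with the smallest differences were Ppp1r3f, a regulatory subunit of protein phosphatase 1, at -0.49, and Ephb6. Of 27 alternatives Art4 kept its call in 7 and Ppp1r3f in 11, while Ephx4, Padi3 and Slc7a3 kept theirs in 23 each. Each of these genes lost its call after normexp correction and on the deposited matrix.

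The 6 higher genes measured on all 4 arrays included Dntt, which encodes terminal deoxynucleotidyl transferase, an enzyme that adds nucleotides at antigen receptor gene joints in lymphocyte precursors. Dntt read 2.26 and 2.58 on nephritic arrays, against 1.59 and 1.17 on untreated arrays, and rose by 1.04 (SE 0.18, limma adjusted p = 0.0317). Bst1, an ADP-ribosyl cyclase also called CD157, read -2.89 and -3.13, against -4.75 and -4.89, and rose by 1.81 (SE 0.27, limma adjusted p = 0.0128). Padi4, which citrullinates histones and is known from neutrophils, read -1.94 and -2.35, against -3.18 and -3.44, and rose by 1.16. Its second probe differed by -0.04, with overlapping arrays. Bst1 and Padi4 were highest on nephritic array 1, and Dntt on nephritic array 2. Bst1 kept its call in 19 of 27 alternatives, Dntt in 15 and Padi4 in 13.

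Wfs1, an endoplasmic reticulum membrane protein, read 0.20 and 0.35 on nephritic arrays, against -0.38 and -0.54 on untreated arrays, a rise of 0.73. The smooth muscle actin gene Acta2 rose by 0.72 and Atp1b1, the beta subunit of the sodium pump, by 0.66. None of the 6 passed on the deposited matrix, where all 11 calls were lower. Rag1, the recombinase gene that works in the same precursors as Dntt, read -4.84 and -4.43, against -7.47 and -6.43 on untreated arrays that were not well above background. Nephritic cells were at least 1.59-fold higher (limma adjusted p = 0.0332), a bound set against the lowest signal of probes above background on the untreated arrays. Its second probe was not well above background on any NEMO array. The bound was 1.59-fold for Slc46a2, a transporter gene of thymic stroma, and 1.21-fold for the Wnt receptor gene Fzd6. Of 27 alternatives Wfs1 kept its call in 21, Slc46a2 in 14, Acta2 and Rag1 in 12 each, Atp1b1 in 9 and Fzd6 in 7.

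The lower genes with the largest differences were those not well above background on nephritic arrays. They include Crx, a retinal transcription factor, Rbfox3, a neuronal splicing factor, the vomeronasal receptor genes Vmn2r16 and Vmn1r35, and Abcb11, the bile salt export pump of hepatocytes. Crx read -7.54 and -7.69 on nephritic arrays, against -2.76 and -3.66 on untreated arrays. The nephritic values lie at the bottom of the scale, so untreated cells were at least 5.51-fold higher (limma adjusted p = 2.90e-04). For Slc24a4, a sodium-calcium exchanger, untreated cells were at least 7.55-fold higher, and for Abcb11 at least 1.49-fold. The other bounds in this set of 15 were 4.16-fold for 8430436N08Rik, 4.17-fold for Rbfox3, 3.60-fold for Adgrl2, 3.82-fold for Dmbt1, and lower for the rest. A probe had to be above background on only 2 of the 16 arrays. It could therefore enter the test through the 2 untreated NEMO arrays alone, where it was high, and its direction was then partly set by the filter.

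These 15 probes were not spread evenly over the array. Of the 15, 8 lay in the first 64 of the 384 rows of spots (53.3%), against 16.7% of all genes tested and 6 of the 36 genes measured on all 4 arrays (16.7%). Over all 55681 probes, 53 were above background on both untreated NEMO arrays and on no other array, and 30 of them lay in the first 64 rows (56.6%). In the reverse case, 125 probes were above background only on both nephritic NEMO arrays, of which 16 lay there (12.8%). Of the 15 genes, 5 had other probes, 6 in all, and none of these was above background on all 4 arrays, so they do not check the difference. The part of spot position in the result was not tested.

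**Figure D2:**
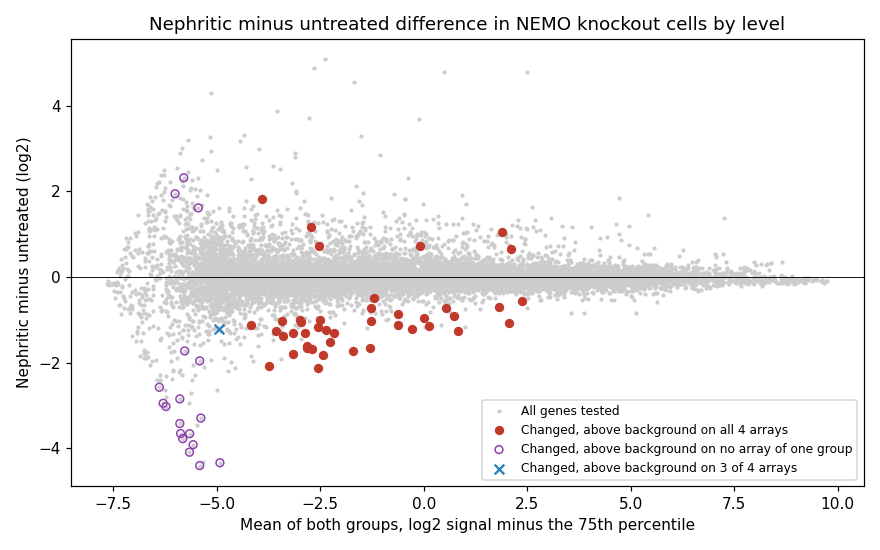
Difference between nephritic and untreated NEMO knockout cells (log2, y axis) against the mean level of both groups (log2 minus the 75th percentile, x axis) for all 14675 genes. Red points are called genes above background on all 4 arrays, open purple circles called genes above background on no array of a group, and the cross is Cxcr1; the 15 lower open circles have a median of -3.42 and lie at the dim end of the scale, the 36 lower red points a median of -1.19.

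Promoter sequences of 4 called genes are shown because the kinase complex that NEMO belongs to acts through kB sites in DNA, and these genes are the ones with the most stable lower calls (Amigo2, Cnn3), the T cell regulator (Bach2) and a higher call (Dntt). Each is the 300 bases from 250 before to 50 after the start of the RefSeq transcript (GRCm38.p6), on the gene's strand. Capitals mark matches of GGGAAA, the opening letters of some kB sites, on either strand (TTTCCC on the other). These letters were chosen after a longer kB pattern had been searched in the same promoters.
Amigo2 (chr15:97247238-97247537, minus strand): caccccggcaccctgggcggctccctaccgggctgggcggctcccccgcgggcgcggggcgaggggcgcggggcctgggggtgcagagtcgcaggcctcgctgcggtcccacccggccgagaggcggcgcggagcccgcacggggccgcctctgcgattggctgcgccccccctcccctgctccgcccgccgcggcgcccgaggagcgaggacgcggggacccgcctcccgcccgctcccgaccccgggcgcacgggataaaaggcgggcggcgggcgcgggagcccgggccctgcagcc
Cnn3 (chr3:121426291-121426590, plus strand): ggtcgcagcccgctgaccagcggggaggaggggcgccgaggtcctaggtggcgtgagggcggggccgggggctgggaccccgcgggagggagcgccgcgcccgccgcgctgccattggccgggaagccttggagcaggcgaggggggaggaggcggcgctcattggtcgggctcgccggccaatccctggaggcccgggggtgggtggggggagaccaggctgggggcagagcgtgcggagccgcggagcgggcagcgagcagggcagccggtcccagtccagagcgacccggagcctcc
Bach2 (chr4:32417185-32417484, plus strand): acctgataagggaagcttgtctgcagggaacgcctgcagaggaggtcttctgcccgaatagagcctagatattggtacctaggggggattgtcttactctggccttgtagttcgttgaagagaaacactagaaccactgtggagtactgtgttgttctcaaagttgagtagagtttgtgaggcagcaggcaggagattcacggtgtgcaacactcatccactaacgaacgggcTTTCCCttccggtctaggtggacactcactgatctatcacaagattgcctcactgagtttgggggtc
Dntt (chr19:41029025-41029324, plus strand): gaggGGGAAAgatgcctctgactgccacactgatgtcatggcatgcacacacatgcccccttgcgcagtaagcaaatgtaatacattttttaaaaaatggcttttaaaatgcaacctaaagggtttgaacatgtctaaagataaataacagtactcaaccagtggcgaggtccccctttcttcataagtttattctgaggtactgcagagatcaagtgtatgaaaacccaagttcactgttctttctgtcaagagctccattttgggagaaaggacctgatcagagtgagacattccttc
Bach2 and Dntt held 1 match each and Amigo2 and Cnn3 none. Such a match is common, since 27.9% of the 27025 genes with a promoter in the table held it, and 29.2% of 11709 tested genes. It was present in 10 of 28 lower genes measured on all 4 arrays that had a promoter (35.7%) and in 3 of the 7 higher genes that had one (42.9%). A match is a description of these letters and not a binding site, and its absence says only that they are not in this window.

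Genes of naive and central memory T cells, which home to lymph nodes, were mostly lower in nephritic NEMO knockout cells, though only Bach2 passed the test. Of 18 measured members, 16 had a negative difference and 2 a positive one, and the median was -0.36, against -0.02 over all genes tested. In 14 members all nephritic values lay below all untreated ones, against 26.5% of all genes. In 9 the unadjusted p was under 0.05 with a lower value, against 3.71% of all genes. The summed level of the list on the linear scale was 346 to 376 on nephritic arrays, against 441 to 450 on untreated arrays. The list was drawn up with earlier results of these data known.

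Ccr7, the chemokine receptor for entry into lymph nodes, read 4.79 and 4.60 on nephritic arrays, against 5.52 and 5.55 on untreated arrays, a difference of -0.84 (SE 0.16, limma adjusted p = 0.0612). Igfbp4, an IGF-binding protein made by naive CD4+ cells, read 0.33 and -0.59, against 0.85 and 1.12 (difference -1.11, limma adjusted p = 0.0708). Satb1, a chromatin organiser of T cells, differed by -0.54, the transcription factor genes Lef1 and Foxp1 by -0.49 and -0.37, and the kinase gene Txk by -0.42. All nephritic values of these 6 genes lay below all untreated values, and none of the 6 passed. Tcf7, the partner of Lef1, and the survival gene Bcl2 had overlapping arrays, with differences of -0.04 and 0.05. Ccr9, a homing receptor for gut, differed the other way, by 0.79, without passing.

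**Figure D3:**
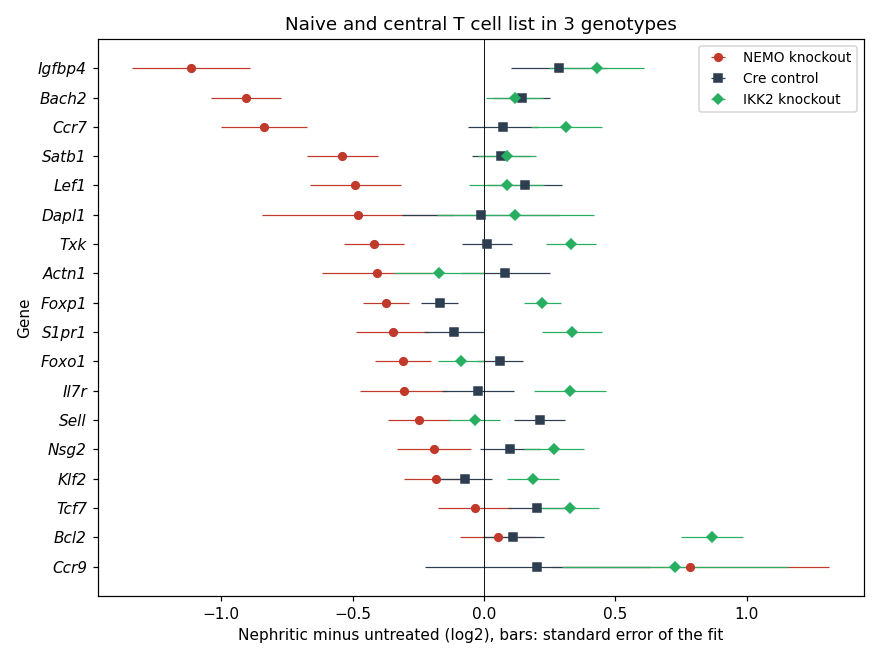
Nephritic minus untreated difference (log2, x axis) of the 18 genes of the naive and central T cell list in NEMO knockout (red circles), Cre control (dark squares) and IKK2 knockout cells (green diamonds), with the standard error of the fit as bars. The red circles run from -1.11 to 0.79 with a median of -0.36; the medians are 0.08 in Cre control and 0.24 in IKK2 knockout cells.

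The same list had a median response of 0.08 in Cre control cells and 0.24 in IKK2 knockout cells. Bach2 differed by 0.14 in Cre control cells and 0.12 in IKK2 knockout cells, neither passing, and Ccr7 by 0.07 and 0.31. For Bach2 the difference of the NEMO response from the Cre response was -1.05 (SE 0.17, limma adjusted p = 0.0380) and from the IKK2 response -1.02 (SE 0.17, adjusted p = 0.0425). With slide as a block the differences were -1.24 (SE 0.23, limma adjusted p = 0.209) from Cre and -1.09 (SE 0.17, adjusted p = 0.0529) from IKK2, so both were further from 0 and neither passed. Bach2 was the only member of the list to differ from the Cre response at 0.05.

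The NEMO knockout cells also stood at another level for these genes before nephritis is considered. Bach2 averaged 0.28 in nephritic and 1.18 in untreated NEMO knockout cells (n = 2 each), and 3.105 ± 0.07 in nephritic and 2.96 ± 0.18 in untreated Cre control cells (SD, n = 3 each). Ccr7 averaged 4.70 and 5.53 in nephritic and untreated NEMO knockout cells, and 7.81 ± 0.16 and 7.73 ± 0.13 in the same states of Cre control cells. Amigo2 averaged -3.62 and -1.49 in NEMO knockout cells, against 0.02 ± 0.10 and 0.25 ± 0.02 in Cre control cells. Cnn3 averaged 0.19 and 1.47, against 2.80 ± 0.23 and 2.80 ± 0.10, and Itm2a 1.51 and 2.59, against 3.92 ± 0.11 and 3.69 ± 0.05. In each of these 5 genes both NEMO knockout means were below both Cre control means, and the nephritic NEMO mean was the lowest. All but Ccr7 had been called lower with nephritis, so a lower nephritic mean is part of how they were chosen. Untreated NEMO knockout means were below untreated Cre control means in 54.4% of all genes tested, and in 94.4% of the 36 lower genes measured on all 4 arrays. The 36 lower genes measured on all 4 arrays had a median level of -2.99 in nephritic and -1.50 in untreated NEMO knockout cells, and of -0.01 and -0.15 in nephritic and untreated Cre control cells. The NEMO knockout arrays had a slide of their own, so genotype and slide cannot be told apart in these levels.

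No gene of the NF-kB system passed. Of 19 measured canonical components none rose or fell at the threshold, and their median difference was 0.01, within a range of -0.20 to 0.21. Rela read 5.93 and 6.004 on nephritic arrays, against 5.995 and 5.95 on untreated arrays, and Chuk 4.07 and 4.08, against 4.07 and 4.09. These groups overlap. Nfkbia, the IkB-alpha gene that NF-kB itself induces, read 5.998 and 6.21, against 5.89 and 5.90, a difference of 0.21 (unadjusted p = 0.0379, limma adjusted p = 0.729). Ikbkb, Nfkb1 and Tnfaip3, an ubiquitin-editing inhibitor of the pathway, differed by -0.13, 0.14 and -0.10, with overlapping arrays.

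Of 14 noncanonical components none passed, with a median of 0.03 and a range of -0.35 to 0.56. Map3k14, the NIK gene, read 3.28 and 3.30 on nephritic arrays, against 3.65 and 3.45 on untreated arrays, a difference of -0.26 (SE 0.13, limma adjusted p = 0.836). Relb read 3.16 and 3.50, against 3.15 and 3.11, a difference of 0.19, and Nfkb2, the p100 precursor, 2.21 and 2.57, against 2.28 and 2.14. Traf3, which holds NIK low, differed by 0.03. The groups overlapped for Nfkb2 and Traf3 and did not for Map3k14 and Relb. Of 27 measured NF-kB target genes none passed, and their median was 0.05.

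T helper genes did not pass either. Il4, the T helper 2 cytokine, came nearest, at 0.76 and 0.15 on nephritic arrays, against -1.45 and -1.28 on untreated arrays, 3.52-fold higher with nephritis (difference 1.82, SE 0.42, limma adjusted p = 0.148). Il10, an anti-inflammatory cytokine, read -3.05 and -3.84, against -4.80 and -4.39 (difference 1.15, adjusted p = 0.458), and Il21, a follicular helper cytokine, 1.28 and 0.82, against -0.51 and -0.23 (difference 1.42, adjusted p = 0.889). In these 3 cytokine genes both nephritic values were above both untreated ones. Il17a read -2.55 and -2.22, against -1.67 and -1.81, a difference of -0.64 (SE 0.67), and Ifng 4.08 and 3.97, against 4.05 and 4.28. Il2 and the activation marker Cd69 differed by 0.06 and 0.04.

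The lineage transcription factors Tbx21, Gata3 and Foxp3 had overlapping arrays. Tbx21 of T helper 1 cells differed by -0.01, Gata3 of T helper 2 cells by 0.08 and Foxp3 of regulatory T cells by 0.01 (SE 0.39). Foxp3 itself read 0.11 and 1.05 on nephritic arrays, which enclose the untreated values of 0.67 and 0.46. Medians of the list differences were -0.01 for T helper 1, 0.20 for T helper 2, -0.18 for T helper 17, 0.17 for regulatory T cell and 0.25 for follicular helper genes. No member of these lists passed. In the T helper 17 list 12 of 14 measured members had a negative difference. All nephritic values lay below all untreated ones in 7 of them, against 26.5% of all genes, and above in 1. In the follicular helper list 11 of 13 members had a positive difference. Nephritic values lay apart above in 10 of these 13, against 19.6% of all genes, and apart below in 1.

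Differences of cell cycle genes were small and mostly positive, and no member passed. Of 24 mitosis genes 23 had a positive difference, with a median of 0.25 and a range of -0.05 to 0.34, and of 27 DNA replication genes 25 did, with a median of 0.24. All nephritic values lay above all untreated ones in 18 of the mitosis genes and 23 of the replication genes, against 19.6% of all genes. The mitosis list had a median response of 0.78 in Cre control cells and -0.14 in IKK2 knockout cells, and the replication list 0.22 and 0.07. Cxcr1, a receptor for chemokines that attract neutrophils, was the sole called member of the 21 measured chemokine receptor genes, against 0.416% of all genes, and kept its call in 9 of 27 alternatives. It read -5.31 and -5.80 on nephritic arrays, against -4.24 and -4.46 on untreated arrays, and fell by 1.21 (limma adjusted p = 0.0419). The medians were 0.10 for 33 interferon-stimulated genes, 0.21 for 18 genes of the unfolded protein and integrated stress responses and 0.09 for 22 genes of antigen-experienced T cells. None of these passed.

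**Figure D4:**
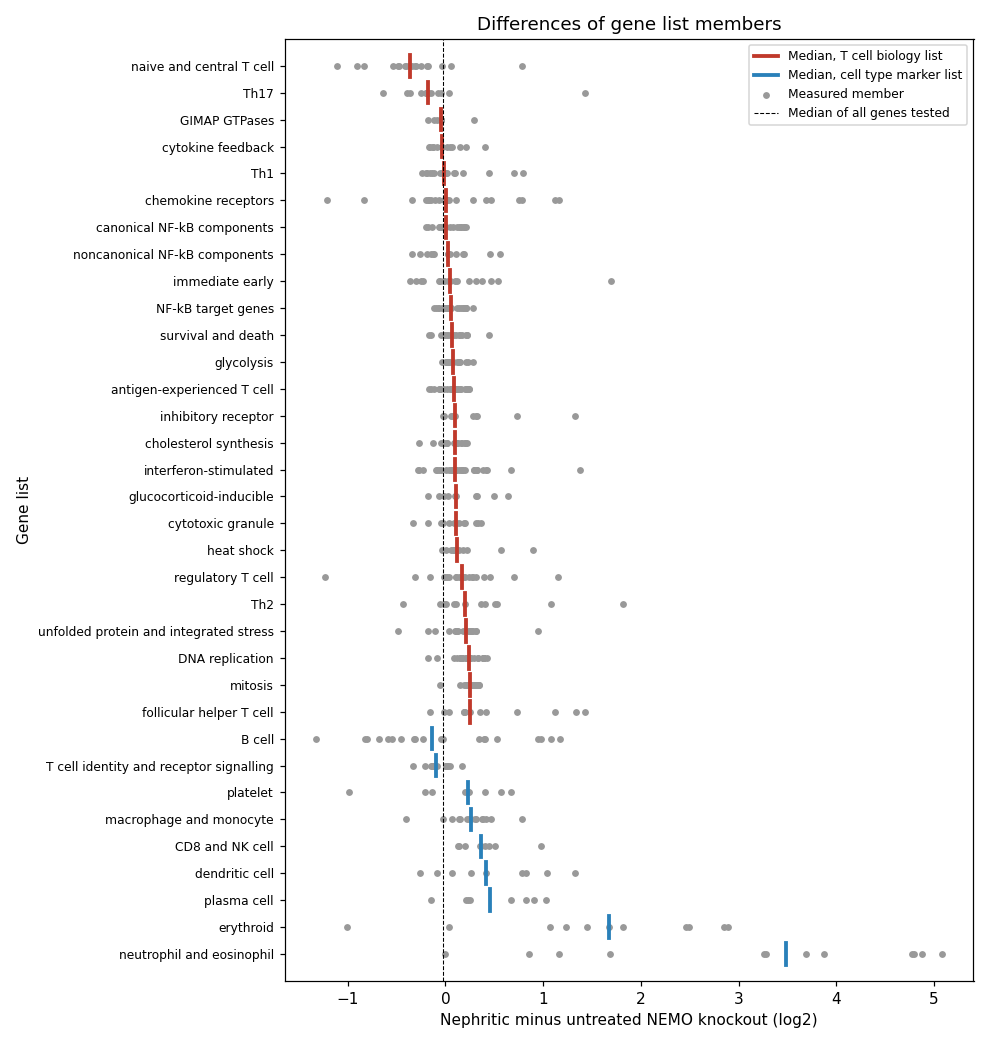
Nephritic minus untreated difference in NEMO knockout cells (log2, x axis) for each measured member (grey points) of 34 gene lists, with the list median as a bar (red for T cell biology lists, blue for cell type marker lists) and the median of all genes, -0.02, as a dashed line. The naive and central T cell list has the lowest median, -0.36, and the neutrophil and eosinophil list the highest, 3.49.

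Marker lists of neutrophils and of erythroid cells had the highest median differences of all lists, without a member that passed. The neutrophil and eosinophil list had a median difference of 3.49 over 12 measured members, of which 11 were positive. In 9 members all nephritic values lay above all untreated ones, against 19.6% of all genes, and in 9 the unadjusted p was under 0.05 with a higher value, against 2.67% of all genes. Its summed level was 22.3 to 96.0 on nephritic arrays, against 2.71 to 4.39 on untreated arrays. The calprotectin subunit gene S100a8 read 4.03 and 1.72, against -1.03 and -2.79 (SE of the difference 1.33, limma adjusted p = 0.303), and the antimicrobial protein gene Lcn2 1.04 and -0.80, against -2.95 and -3.36 (adjusted p = 0.182). Nephritic array 1 was the highest array for both. Elane, the neutrophil elastase gene, overlapped, at 0.18 and -0.04 against 0.04 and 0.12. Median responses of the same list were 2.03 in Cre control cells and 1.80 in IKK2 knockout cells.

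The erythroid list had a median of 1.67 over 11 members, none passing, with a summed level of 56.4 to 111 on nephritic arrays, against 27.8 to 33.7 on untreated arrays. Its median response was 2.40 in Cre control cells and 0.74 in IKK2 knockout cells. B cell markers were 8 positive and 12 negative with a median of -0.14, and their summed level was 327 and 352 on nephritic arrays 1 and 2, against 280 and 222 on untreated arrays 1 and 2. In Cre control cells the B cell sum was 21.6 to 48.3 untreated and 27.2 to 225 with nephritis. In IKK2 knockout cells it was 199 to 257 untreated and 154 to 228 with nephritis. The T cell identity and receptor signalling list summed to 1852 to 1865 on nephritic arrays, against 1915 to 1968 on untreated arrays, with a median difference of -0.10 over 20 genes. In bulk RNA, fewer cells of a type and less RNA per cell cannot be told apart. The neutrophil and erythroid sums were highest on nephritic array 1 and the B cell sum on nephritic array 2. Nephritic array 2 was below nephritic array 1 in 30 of the 36 lower genes measured on all 4 arrays, and in 8153 of all 14675 genes. The part of the other cell types in the results, including Bst1 and Padi4, was not tested.

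The response of the 42 genes measured on all 4 arrays was then set beside that in the other genotypes. For the 36 lower genes the median response was 0.06 in Cre control cells and -0.0015 in IKK2 knockout cells, against -1.19 in NEMO knockout cells. These genes were chosen by their NEMO difference, so a value further from 0 in NEMO knockout cells is part of the choice. Of the 6 higher genes, Padi4, Bst1 and Wfs1 also rose in Cre control cells, by 1.39, 1.53 and 0.37 (limma adjusted p = 0.00445, 0.00843 and 0.0433), and none passed in IKK2 knockout cells. Slc7a3 and 1700123K08Rik fell in Cre control cells as well, by 0.47 and 0.77. The response of Cre control cells as a whole held 592 genes (4.03%) and that of IKK2 knockout cells 65 (0.443%), from 3 arrays a group in place of 2. Nephritic and untreated Cre control arrays lay on different slides, which only the untreated IKK2 knockout group spanned, with array 3 beside the untreated Cre control arrays. A slide term for the Cre response therefore rests on that 1 array.

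**Figure D5:**
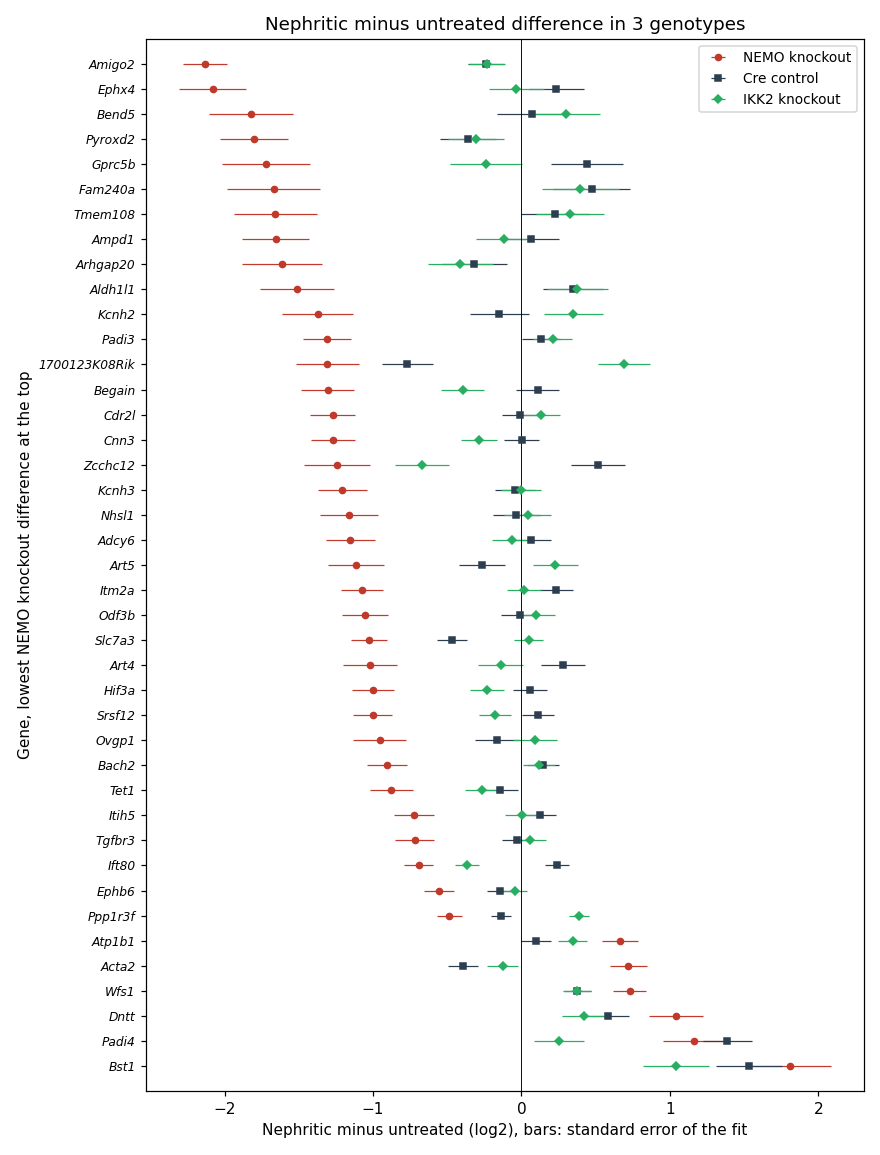
Nephritic minus untreated difference (log2, x axis) of 41 of the 42 changed genes above background on all NEMO knockout arrays, in NEMO knockout (red circles), Cre control (dark squares) and IKK2 knockout cells (green diamonds), with the standard error of the fit as bars. For the 35 lower genes shown the medians are -1.21, 0.06 and 0.000686 in that order. The genes were chosen by their NEMO knockout difference.

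The difference of response itself passed for 39 genes against Cre control (0.266%), 37 of them lower in the NEMO response (0.252%), and for 37 genes against IKK2 knockout (0.252%), 34 of them lower (0.232%). Among the 36 lower genes measured on all 4 arrays, 17 differed from the Cre response, 13 from the IKK2 response and 7 from both. The NEMO difference by which these 36 were chosen enters both comparisons, so these counts are raised by the choice. Amigo2 differed by -1.89 (SE 0.19, limma adjusted p = 0.00253) from the Cre response and by -1.90 (SE 0.19, adjusted p = 0.00367) from the IKK2 response. Itm2a differed by -1.30 and -1.09 (limma adjusted p = 0.0164 and 0.0425). With slide as a block 1 gene remained against Cre control, Abcb11, and 15 genes passed against IKK2 knockout. For Amigo2 the blocked difference was -1.89 (SE 0.28, limma adjusted p = 0.0918) from Cre and -1.90 (SE 0.21, adjusted p = 0.00703) from IKK2, so the size held and the error grew. Itm2a passed against neither with the block (adjusted p = 0.274 and 0.0848). The slide term takes up untreated IKK2 knockout array 3. Against IKK2 knockout the block is therefore the same comparison as leaving that array out, which also gave 15, and not a separate check. After normexp correction no gene passed in either comparison, with 867 and 1104 genes at an unadjusted p under 0.05.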

How the data were processed

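Per the labels' protocols, spleen CD4+ cells were enriched, sorted and labelled with Cy3, 1 array a sample. The authors deposited scanner files of spot intensity, which Agilent Feature Extraction had detrended after background subtraction (10.7.3.1 per the file headers, 10.5 per the submitters' processing notes). They also deposited a matrix of log2 values, and no source used here gives its method. It tracked the log2 median spot intensity of each array (correlation across probes 0.994 to 0.999), with column medians of 5.65 to 5.68, and served as an alternative. Control and outlier spots were left out.

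The 75th percentile of each array was subtracted from log2 processed intensity. Probes well above background on at least 2 of 16 arrays were kept (34938). A gene was its probe with the highest mean. Symbols came from accessions through a RefSeq table (GRCm38.p6) for 27235 of 55681 probes, while the headers name build mm9. limma 3.58.1 (R 4.3.3) fitted 6 group means to the 16 arrays, and p-values were two-sided. With 2 arrays a side an exact permutation test cannot go below 0.333. The 4 NEMO arrays had 57.9% to 59.8% of their spots above background and none saturated, and the number of arrays limits the precision. Alternatives covered background correction, scaling, filter, probe choice, arrays fitted, slide, replicate block and each array left out. Normexp used the median spot signal with an offset of 50, since mean signals were not used here.

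Genes were named as follows. Those passing with groups apart and a probe above background in a group were named by size, up to 15 in each direction. Passing members of 25 biology lists followed, up to 6 a list (otherwise up to 3 by p), with a fixed set of NF-kB and T helper genes and the 6 highest and 6 lowest response differences. Other genes named in the text were chosen after their values were seen, and 2 genes are counted but not reported here by name. Members and lists (34 lists, 537 genes, 526 with a probe) were chosen with earlier results of these data known.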

Additional observations from a re-analysis of the deposited data

Results flagged for a closer look

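In 40 named genes the nephritis response of NEMO knockout cells differed from that of Cre control or IKK2 knockout cells at a limma adjusted p of 0.05. Each value below is the NEMO response minus the other response on the log2 scale. Of these, 32 differed from Cre control, and all 32 kept their sign with slide as a block, though only Abcb11 still passed there. The blocked differences from Cre control were 0.728 to 1.22 times those without the block (median 0.884), and their median SE was 0.404 with the block and 0.290 without it. Against IKK2 knockout 27 kept their sign and 13 still passed. The nephritic and untreated Cre control arrays lay on different slides, and untreated IKK2 knockout array 3 is the single array through which the slide term is estimated. Against IKK2 knockout the block therefore amounts to leaving that array out.

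Among genes above background on all 4 NEMO arrays, the adhesion gene Amigo2 differed from the Cre control response by -1.89, Ephx4 by -2.32, the receptor gene Gprc5b by -2.16, the AMP deaminase gene Ampd1 by -1.72 and Aldh1l1 by -1.86. Differences between -1.76 and -1.22 were found for Zcchc12 (-1.76), Padi3 (-1.44), Begain (-1.41), Itm2a (-1.30), Cnn3 (-1.27), Cdr2l (-1.26) and Adcy6 (-1.22). The splicing factor gene Srsf12 differed by -1.11, Hif3a by -1.06, the T cell repressor gene Bach2 by -1.05 and Ift80 of cilia by -0.93. The NEMO response was higher in Acta2, by 1.12, and in 2310079G19Rik, by 1.35. Cxcr1, above background on 3 of the 4 arrays, differed by -1.66.

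Among genes above background on no nephritic NEMO array, the fitted differences from Cre control were -5.32 for Slc24a4, -4.91 for Crx, -4.65 for Vmn2r16, -4.54 for 8430436N08Rik, -4.33 for Rbfox3, -4.15 for Adgrl2 and -4.13 for Slc17a2. They were -3.96 for Vmn1r35, -3.53 for Gfra1, -3.31 for 1700065J11Rik, -2.98 for Dmbt1, -2.98 for Abcb11 and -2.18 for Zfp879. These values rest on signals at the floor and are not fold changes. A probe of this kind could enter the test through the untreated NEMO arrays alone, where it was high.

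A further 8 genes differed only from the IKK2 knockout response at this threshold. Their difference from the Cre control response was tested and passed for none. There the limma adjusted p ran from 0.0566 for Kcnh3 to 0.982 for Plin2, with differences of -1.16 and 0.01. Against IKK2 knockout the NEMO response was lower in Bend5 by -2.12, in 1700123K08Rik by -1.995 and in the potassium channel gene Kcnh3 by -1.20. It was also lower in Odf3b by -1.15, in Slc7a3 by -1.08 and in Ppp1r3f by -0.88. It was higher in Plin2, which coats lipid droplets, by 1.18 and in Aacs, which activates acetoacetate, by 0.74.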

How the results depend on the processing

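All 61 called genes kept their direction in each of the 27 alternatives, but many of these could not change it. Fits that alter only the arrays of other genotypes or the variance leave the NEMO difference as it is. The nephritic and untreated arrays overlapped in none of the 61 genes, so leaving out 1 NEMO array could not reverse it either. The kept direction is no check in those alternatives. The count of 61 became 13 with normexp, where signal, detrending and offset changed together (3 higher, 10 lower, 11 genes shared), 11 on the deposited matrix (0 higher, 11 lower, 10 shared) and 0 with the 4 NEMO arrays alone (1727 at an unadjusted p under 0.05). Leaving out single arrays gave 23 to 65, with 40 and 30 without untreated NEMO array 1 and 2 and 23 without nephritic NEMO array 2, and 14 of the 61 genes passed without each NEMO array in turn. Where a group was left with 1 array, it was assumed to vary like the others. Of those 14 genes, only Amigo2, Cnn3, Cdr2l, Ephx4, Padi3 and Slc7a3 were above background on all 4 NEMO arrays. The others were above background on no nephritic array. Their probes could enter the test through the untreated NEMO arrays alone, so their kept calls are no separate check. The replicate block, fitted because the labels number the arrays, left 4 genes. Same-numbered arrays deviated from their group means with a correlation of 0.05 across genes over 2 pairs, so the numbers are not taken to pair the samples. The other settings gave 41 to 74.

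The 39 differences from the Cre control response became 0 with normexp (867 unadjusted), 1 on the matrix, 21 with quantile normalization, 23 with the other percentile, 15 without a filter, 5 with the arrays of the contrast, 1 with slide as a block (a term resting on untreated IKK2 knockout array 3), 1 with the replicate block and 9 with probes above background on all 4 NEMO arrays, a filter chosen after seeing the data. Leaving out single arrays gave 13 to 50. The 37 differences from the IKK2 knockout response became, in the same settings, 0 (1104 unadjusted), 2, 72, 92, 18, 1, 15, 1 and 10. They became 59 with the filter on both arrays of a NEMO group and 60 with an intensity trend, and leaving out single arrays gave 13 to 87. The cause of these shifts was not tested. List medians moved by more than the replicate spread in 3 of 34 lists on the matrix and in 5 with normexp. Signal over background limits the 15 lower and 3 higher genes that were dim in a group, for which bounds only are given.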
